A study of Mus musculus with 32 samples.

Results

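The livers of wild type and Nudt7-/- mice were examined for 9 genes of vitamin A (retinoid) metabolism, Rbp4, Lrat, Adh1, Rdh7, Rdh16, Dhrs3, Aldh1a1, Aldh1a7 and Cyp26a1, chosen by name from the 35523 genes to which transcripts were assigned. RNA was sequenced from 32 livers in 8 groups of 4: wild type (WT) and Nudt7-/- (KO) males and females, each on a control diet (CD, 10% of kcal from fat and 0% cholesterol) or a Western diet (WD, 41% of kcal from fat and 0.2% cholesterol). Mice were on the C57BL/6J background, began the diets at 6 weeks of age and were killed at 17 to 20 weeks, and NUDT7 is a peroxisomal enzyme that hydrolyzes coenzyme A species. The KO allele lacks exons 3 and 4 of Nudt7 in the whole body and descends from 1 mosaic founder made by CRISPR/Cas9 in FVB zygotes and then backcrossed. KO and WT mice were littermates, and the feeding state of the sequenced livers is not given in the labels. The labels number the libraries of a group without saying that each came from a different mouse, so the p-values measure the spread between these libraries.

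The liver is the main store of vitamin A. Retinol is bound in the circulation by retinol-binding protein, which hepatocytes secrete, and is esterified for storage in hepatic stellate cells by lecithin retinol acyltransferase. Alcohol and short-chain dehydrogenases oxidize retinol to retinal, which DHRS3 reduces back to retinol, and retinaldehyde dehydrogenases turn retinal into retinoic acid. Retinoic acid activates the RAR and RXR nuclear receptors and is degraded by the CYP26 enzymes, and the genes for CYP26A1 and LRAT are classical targets of retinoic acid.

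The genes lie on 4 chromosomes of GRCm38. Chromosome 19 holds Cyp26a1 (37697798-37701536, plus strand) and Rbp4 (38116629-38125281, minus strand), and it also holds the paralogs Aldh1a1 (20492715-20643465, plus strand) and Aldh1a7 (20692953-20727562, minus strand). Chromosome 10 holds Rdh16 (127801152-127846565, plus strand) and Rdh7 (127884028-127888817, minus strand), chromosome 3 holds Lrat (82892579-82903973, minus strand) and Adh1 (138260991-138290698, plus strand), and chromosome 4 holds Dhrs3 (144892827-144928209, plus strand). All 9 genes matched at least 1 annotated start in the RefSeq promoter table (GRCm38.p6). The 250 bases before each start were searched on both strands for a direct repeat with a spacer of 5 bases, the arrangement that RAR-RXR dimers are known to bind, in the 4 forms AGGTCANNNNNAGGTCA, AGGTCANNNNNAGTTCA, AGTTCANNNNNAGGTCA and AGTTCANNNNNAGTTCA. Of 32851 starts of all genes, 11 (0.0335%) held any of these, and among the 9 genes Cyp26a1 alone did, with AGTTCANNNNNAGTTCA on the minus strand beginning 32 bases before the start. No match in the other promoters says only that these letters are absent from these windows. The Cyp26a1 sequence is shown because its transcript varied more between livers than that of any other of the 9 genes. It spans chr19:37697558-37697807 on the plus strand, with the half-sites of the repeat, as they read on that strand, in capitals.
Cyp26a1: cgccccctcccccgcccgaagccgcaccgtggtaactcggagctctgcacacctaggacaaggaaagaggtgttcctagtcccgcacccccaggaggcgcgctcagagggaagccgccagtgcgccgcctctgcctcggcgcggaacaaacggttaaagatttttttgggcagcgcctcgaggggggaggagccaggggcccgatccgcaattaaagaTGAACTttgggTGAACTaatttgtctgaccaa

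The promoters of Aldh1a1 and Aldh1a7 are shown beside each other because these neighboring genes were both lower in females. The sequences are from chr19:20601718-20601967 (plus strand) and chr19:20727557-20727806 (minus strand), and the capitals mark runs of at least 12 identical bases in the alignment. These runs cover 91 of 250 bases, and 65.7% of the 268 aligned columns were identical.
Aldh1a1: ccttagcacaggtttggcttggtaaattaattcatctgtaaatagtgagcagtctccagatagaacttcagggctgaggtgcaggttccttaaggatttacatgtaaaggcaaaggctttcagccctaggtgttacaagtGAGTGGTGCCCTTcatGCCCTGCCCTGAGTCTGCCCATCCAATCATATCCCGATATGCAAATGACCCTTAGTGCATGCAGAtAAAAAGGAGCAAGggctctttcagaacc
Aldh1a7: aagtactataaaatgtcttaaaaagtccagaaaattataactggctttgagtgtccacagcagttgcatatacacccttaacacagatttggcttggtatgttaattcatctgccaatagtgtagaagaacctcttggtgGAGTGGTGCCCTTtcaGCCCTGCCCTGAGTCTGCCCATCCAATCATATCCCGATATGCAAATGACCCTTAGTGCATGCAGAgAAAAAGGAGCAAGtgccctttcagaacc
The Aldh1a1 start used here lies 7 bases from the start of Aldh1a1-201, the transcript to which 99.5% of the reads of the gene were assigned.

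The libraries held 10140048 to 15825078 estimated counts (median 13000302), and all 9 genes reached 10 counts in every library. Nudt7 was 41.1 to 249 CPM (counts per 1e6 library counts) in KO males against 343.5 to 656 in WT males, and 21.2 to 63.1 CPM in KO females against 96.1 to 236 in WT females. The remaining exons are still counted, and no KO library overlapped the WT libraries of its sex. The 4 Y-linked genes tested were lower in females. The 6 hepatocyte markers summed to 50400 to 97950 CPM. Transcripts of pancreatic acinar cells (12 genes) summed to 421 to 5690 CPM in WT females CD 2 and 4, KO females CD 3 and WT females WD 4, and to at most 106 CPM in the other 28 libraries.

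Compared per transcript length, as TPM (transcripts per 1e6 transcripts), Rbp4 and Adh1 were the most abundant of the 9 genes. Over the 32 libraries the mean level was 3408 TPM for Rbp4, 1689 TPM for Adh1, 781.5 TPM for Rdh7 and 559 TPM for Aldh1a1. Dhrs3 (161 TPM), Aldh1a7 (97.4 TPM) and Rdh16 (82.6 TPM) were intermediate, and Cyp26a1 (10.9 TPM) and Lrat (8.59 TPM) were the lowest. Rbp4 (2908 to 4385 TPM), Adh1 (944 to 2881 TPM) and Rdh7 (628 to 902 TPM) did not overlap in their ranges over the libraries. Rdh7 overlapped Aldh1a1 (285 to 915 TPM), which lay above Dhrs3 (119.8 to 237 TPM). From Dhrs3 downward each gene overlapped the next, through Aldh1a7 (40.1 to 173.5 TPM), Rdh16 (30.6 to 216 TPM), Cyp26a1 (0.897 to 94.8 TPM) and Lrat (3.63 to 17.7 TPM). The genes also differed in how steady they were. Within groups the SD of log2 CPM was 0.17 for Rbp4 and 0.18 for Rdh7, below the median of all tested genes (0.23), but 0.46 for Lrat and Rdh16, 0.50 for Aldh1a7 and 1.12 for Cyp26a1. The spread of Cyp26a1, whose lowest and highest libraries were 0.823 and 70.7 CPM, was larger than that of 98% of the tested genes.

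**Figure D1:**
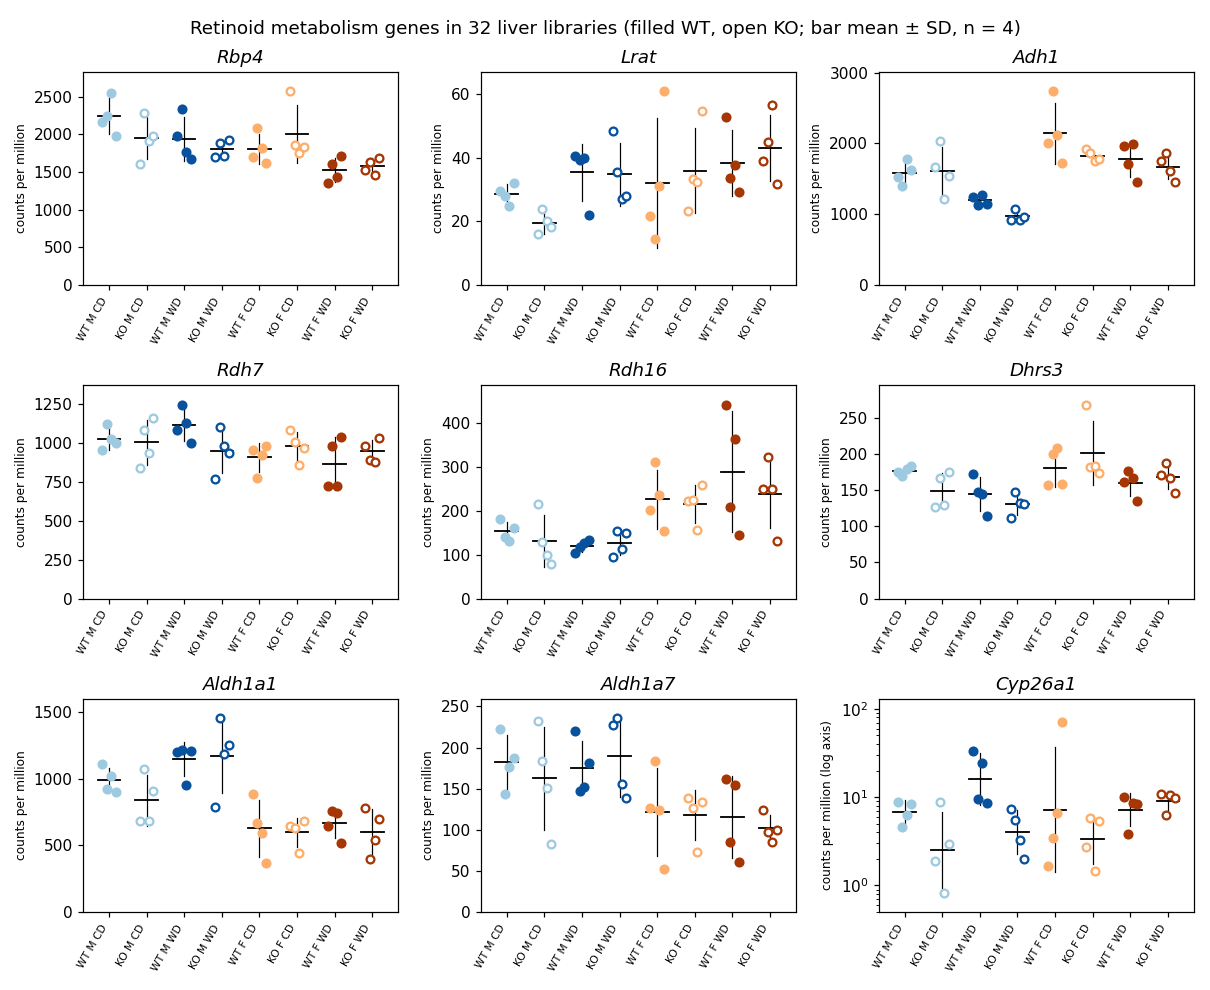
Levels in CPM of the 9 genes in each of 32 liver libraries (y axis; log axis for Cyp26a1 only) by group (x axis; M, males; F, females). Filled points are WT and open points KO, horizontal bars are means and vertical bars SD (n = 4; for Cyp26a1 both were taken on the log2 scale). Aldh1a1 sits lower and Adh1 and Rdh16 sit higher in females, and the WT females CD library at 70.7 CPM stands alone in the Cyp26a1 panel.

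More of these genes were called for sex than for diet or genotype. All tested genes showed the same order, with 31.6%, 19.4% and 0.0886% called. Averaged over genotype and diet, 6 of the 9 were called by edgeR at an adjusted p under 0.05, against 31.6% of the 13539 genes tested. In females 3 were higher (Adh1, Rdh16 and Dhrs3; background 15.9%) and 3 were lower (Aldh1a1, Aldh1a7 and Rbp4; background 15.6%). Adh1 and Rdh16, whose products oxidize retinol, were higher, as was Dhrs3, whose product reduces retinal. Aldh1a1, whose product oxidizes retinal, was lower, as was its paralog Aldh1a7. Other oxidoreductases of retinol and retinal, given below, went both ways in females. Rdh16f2 was higher (1.90), whereas Adh4 (-1.29) and Adh5 (-0.30) were lower. The median log2 fold change of the 9 was 0.24 against 0.02 for all tested genes, and DESeq2 called 6 on the gene sums and 7 with length offsets, Rdh7 being added. Some markers of several cell types were also called for sex (31.6% of all tested genes). Of 6 hepatocyte markers 3 were lower and 1 was higher in females, with summed levels of 50400 to 97160 CPM in males and 64650 to 97950 CPM in females. Of 6 Kupffer cell and macrophage markers 4 were higher, with sums of 226 to 406 CPM in males and 254 to 587 CPM in females. Of 6 endothelial markers 2 were higher, with sums of 249 to 313 CPM in males and 244 to 364 CPM in females. The sums of each list overlapped between the sexes. The part of these lists in the sex differences of the 9 genes was not tested. None of the 6 calls of the retinoid genes was lost when any library was left out or when the 4 libraries with acinar transcripts were removed.

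Aldh1a1, a retinaldehyde dehydrogenase of the cytosol, showed the clearest difference among the genes lower in females. In males on the CD it was 1106, 922, 1016 and 901 CPM in the 4 WT livers and 679, 1074, 685 and 907 CPM in the KO livers. In males on the WD it was 1202, 1215, 952.5 and 1206 CPM in WT and 788, 1452, 1187 and 1251 CPM in KO. In females on the CD it was 882, 669, 591 and 365 CPM in WT and 644, 630.2, 440.4 and 683 CPM in KO, and on the WD 642, 757, 738.5 and 518 CPM in WT and 779, 397, 542 and 696 CPM in KO. All 4 WT males lay above all 4 WT females on either diet, whereas KO males and females overlapped on the CD but not on the WD. The mean sex effect was -0.72 ± 0.11 (log2 fold change ± SE, females minus males; adjusted p = 8.39e-06), that is, 0.607-fold.

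Aldh1a7 encodes a closely related enzyme, and its transcript is 88.9% identical to that of Aldh1a1 over their alignment. It ranged from 82.4 to 236 CPM in males and from 52.0 to 184 CPM in females, so the sexes overlapped over much of their range. Only in KO mice on the WD were they apart, at 139 to 236 CPM in males and 85.7 to 124.6 CPM in females. That difference was not called (edgeR adjusted p = 0.0859). The mean sex effect was -0.64 ± 0.17 (adjusted p = 0.00444). Of the stretches of 50 bases in Aldh1a1, the read length stated in the labels, 7.53% also occur in another gene, and for such reads the assignment is an estimate.

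Adh1, the class I alcohol dehydrogenase of the liver, was the gene with the smallest p among those higher in females. In males it was 1523, 1401, 1777 and 1624 CPM in WT and 1672, 2032, 1215 and 1537 CPM in KO on the CD, but 1239, 1128, 1279 and 1139 CPM in WT and 923, 1078, 919.9 and 961 CPM in KO on the WD. In females it was 2003, 2738, 2116 and 1719 CPM in WT and 1922, 1862, 1747 and 1779 CPM in KO on the CD. On the WD the female livers held 1967, 1707, 1994 and 1458 CPM in WT and 1756, 1859, 1607 and 1456 CPM in KO. Males on the WD were the low groups, without overlap with the females on the same diet in either genotype. The mean sex effect was 0.49 ± 0.07 (adjusted p = 1.90e-06), or 1.41-fold.

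Rdh16, a retinol dehydrogenase of the short-chain family, had the largest mean sex effect of the 9 genes (0.86 ± 0.16, adjusted p = 0.00012, 1.82-fold). It was 132 to 182 CPM in WT males CD, 79.3 to 216 in KO males CD, 103 to 135 in WT males WD and 94.7 to 154 in KO males WD. In females on the CD it was 202, 312, 238 and 154 CPM in WT and 222, 226, 157 and 259.8 CPM in KO. On the WD it was 443, 208, 364 and 145 CPM in WT females and 251, 324.5, 250.3 and 132 CPM in KO females. WT females did not overlap WT males on the WD, whereas the sexes overlapped in the other 3 pairs of groups. Rdh16 and Rdh7 belong to a cluster of similar genes on chromosome 10, and 15.1% of the stretches of 50 bases in Rdh16 and 13.2% of those in Rdh7 occur in other genes, mainly of the same cluster, so their levels carry the uncertainty of that assignment.

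The remaining sex differences were small. Dhrs3, which encodes a retinal reductase, was 0.24 ± 0.07 higher in females (adjusted p = 0.00794), with 112 to 183 CPM in males and 136 to 268 CPM in females. Rbp4 was 0.20 ± 0.07 lower (adjusted p = 0.019), with 1614 to 2557 CPM in males and 1356 to 2574 CPM in females. The sexes were apart for Rbp4 only in KO mice on the WD, at 1696 to 1925 CPM in males and 1464 to 1690 CPM in females. That difference was not called (edgeR adjusted p = 0.399). The Rbp4 difference depended on the scale, since the log2 ratio of the mean levels was -0.20 in CPM and -0.01 in the deposited TPM, while edgeR with length offsets still gave -0.18 (adjusted p = 0.033). Rdh7 did not pass (-0.14 ± 0.07, adjusted p = 0.0924), nor did Lrat (0.37 ± 0.16, adjusted p = 0.0809) or Cyp26a1 (0.34 ± 0.41, adjusted p = 0.552). Lrat passed without KO males WD 1 (adjusted p = 0.0487) or without WT females CD 2 (0.0271), and Rdh7 passed without KO males WD 1 (0.043) or WT females WD 4 (0.0432). Cyp26a1 changed sign, to -0.25, without WT females CD 4.

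**Figure D2:**
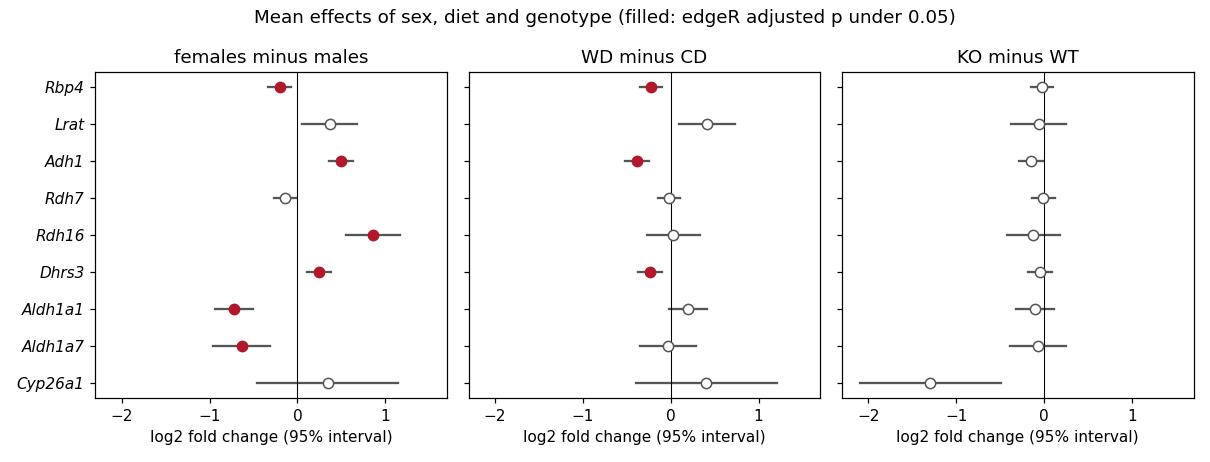
Log2 fold changes (x axis) of the 9 genes for females minus males, WD minus CD and KO minus WT, each averaged over the other 2 factors. Lines are 95% intervals and filled points have an edgeR adjusted p under 0.05. There are 6 filled points for sex, 3 for diet, all below 0, and none for genotype, where Cyp26a1 has the widest interval.

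Within single genotypes and diets, more sex differences were called on the WD than on the CD, although the difference between the diets itself passed for none of the 9 genes. In WT mice on the WD, 3 of the 9 genes were called (background 10.3%): Aldh1a1 (-0.79 ± 0.22, adjusted p = 0.0196), Adh1 (0.57 ± 0.14, adjusted p = 0.00593) and Rdh16 (1.27 ± 0.31, adjusted p = 0.00881). In KO mice on the WD, 2 were called (background 10.6%), Aldh1a1 (-0.95 ± 0.22, adjusted p = 0.00457) and Adh1 (0.78 ± 0.14, adjusted p = 0.000275). On the CD, Dhrs3 alone was called in KO mice (0.43 ± 0.14, adjusted p = 0.0382; background 12.0%), although 174 to 268 CPM in females and 127 to 175 CPM in males overlapped. None of the 9 was called in WT mice on the CD (background 4.54%), where 3 had an unadjusted p under 0.05 and DESeq2 called 1, Adh1, on the sums and with length offsets. Several of these calls rested on single libraries. In WT mice on the WD, Aldh1a1 was lost without WT males WD 1 (adjusted p = 0.0536), WT females WD 1 (0.0532) or WT females WD 4 (0.0542), and Rdh16 was lost without WT females WD 1 (0.0592). Dhrs3 in KO mice on the CD was lost without KO males CD 1 (0.121), KO males CD 3 (0.123) or KO females CD 1, which moved it from 0.43 to 0.27 (adjusted p = 0.224). In WT mice on the CD, Adh1 passed without KO males CD 2 (0.0451), KO males CD 3 (0.0448), WT females CD 4 (0.0285) or WT females WD 4 (0.0476), and Aldh1a1 passed without WT females CD 1 (0.0284). Other genes were gained in the same way. Rdh7 passed in WT mice on the WD without WT females WD 4 (0.0236). In KO mice on the CD, Lrat passed without WT females CD 2 (0.0462) or WT females CD 4 (0.0287) and Rdh16 without KO males CD 1 (0.0283). In KO mice on the WD, Aldh1a7 passed without WT females CD 4 (0.0474) and Rdh16 without KO males CD 1 (0.0409), WT females WD 4 (0.04) or KO females WD 4 (0.0222).

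The Western diet was accompanied by lower levels of 3 of the 9 genes, and none was called higher. Averaged over sex and genotype, Adh1, Rbp4 and Dhrs3 were lower on the WD, against a background of 19.4% of genes called, 10.8% lower and 8.63% higher. Adh1 changed most, by -0.38 ± 0.07 (adjusted p = 0.000266), or 0.767-fold. Rbp4 changed by -0.23 ± 0.07 (adjusted p = 0.0145) and Dhrs3 by -0.23 ± 0.07 (adjusted p = 0.018). The call of Rbp4 was lost when a trend of the counts with transcript length was removed (-0.11, adjusted p = 0.164), and that of Dhrs3 when length offsets were used (-0.19, adjusted p = 0.074 in edgeR and 0.0639 in DESeq2). DESeq2 called 4 genes on the sums, Lrat being added, and 2 with length offsets. Of the 6 hepatocyte markers 4 were also lower on the WD (10.8% of all tested genes), with sums of 50400 to 77580 CPM in males and 64650 to 81770 CPM in females against 74680 to 97160 CPM and 79390 to 97950 CPM on the CD. Of the 6 Kupffer cell and macrophage markers 2 were higher on the WD (8.63% of all tested genes). The part of these lists in the diet differences was not tested. In bulk liver, fewer cells of a type and less RNA per cell cannot be told apart.

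The fall of Adh1 on the WD was called in KO males alone. In KO males it was called (-0.73 ± 0.14, adjusted p = 0.00158), as 1 of the 9 genes (background 5.52%), with 920 to 1078 CPM on the WD and 1215 to 2032 CPM on the CD. In WT males no gene of the 9 was called (background 10.1%), 2 had an unadjusted p under 0.05 and DESeq2 called 1, Adh1, on the sums and 0 with length offsets. The WT males did not overlap either for Adh1, at 1128 to 1279 CPM on the WD and 1401 to 1777 CPM on the CD (-0.40 ± 0.14, adjusted p = 0.0577). It passed without WT males CD 2 (0.046), KO males CD 2 (0.0422), KO males CD 3 (0.0435) or WT females CD 2 (0.0325), and it passed with the replicate number as a block (0.0493). In females 0 of the 9 genes were called in WT (background 0.259%; 0 with an unadjusted p under 0.05) or in KO (background 0.657%; 1 unadjusted), and DESeq2 called 0 in either genotype under both settings. The diet effect on Adh1 in females minus that in males was 0.37 ± 0.14 (adjusted p = 0.296). No gene of the 9 was called for this difference between the sexes (background 0.244%; 1 unadjusted; DESeq2 0 under both settings).

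For Lrat and Cyp26a1 the mean diet effect passed or failed the test depending on single livers. Lrat was 29.6, 27.8, 24.9 and 32.2 CPM in WT males CD and 15.9, 23.9, 20.0 and 18.1 CPM in KO males CD, against 40.4, 39.3, 39.8 and 22.0 CPM in WT males WD and 48.5, 35.6, 27.0 and 27.9 CPM in KO males WD. In females it was 21.8, 14.4, 31.1 and 60.9 CPM in WT and 23.3, 33.2, 32.4 and 54.6 CPM in KO on the CD, against 52.9, 33.5, 37.7 and 29.1 CPM in WT and 39.1, 45.04, 56.5 and 31.8 CPM in KO on the WD. The KO males did not overlap between the diets, and in each group of females on the CD replicate 4 was far above the other 3 libraries. The mean diet effect on Lrat was 0.41 ± 0.16 (adjusted p = 0.0702), and it passed without WT females CD 4 (0.55, adjusted p = 0.00447), KO females CD 4 (0.0298) or WT males WD 4 (0.0459).

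Cyp26a1, which encodes the main retinoic acid hydroxylase of the liver, was 8.93, 4.54, 6.23 and 8.35 CPM in WT males CD and 33.0, 9.61, 24.7 and 8.59 CPM in WT males WD. In KO males it was 1.90, 8.88, 0.823 and 2.95 CPM on the CD and 7.26, 5.53, 3.25 and 2.01 CPM on the WD. In WT females it was 1.66, 3.48, 6.70 and 70.7 CPM on the CD and 10.0, 3.86, 8.60 and 8.29 CPM on the WD, and in KO females 2.70, 5.84, 1.46 and 5.31 CPM on the CD and 10.8, 6.31, 10.5 and 9.78 CPM on the WD. The KO females did not overlap between the diets, whereas the WT females were dominated by replicate 4 on the CD. With all 32 libraries the mean diet effect was 0.40 ± 0.41 (adjusted p = 0.531). Without WT females CD 4 it was 1.01 (adjusted p = 0.016), so that Cyp26a1 and Lrat were then both called for diet. That library also held the highest Lrat of the 32 (60.9 CPM; 14.4 to 56.5 elsewhere), the highest Cyp26b1 (95.6 CPM; 0 to 59.3 elsewhere) and the highest Rarb (7.30 CPM; 1.67 to 6.92 elsewhere), whereas its Dhrs3 (158 CPM) ranked 20 among 32. Its Aldh1a1 (365 CPM) and Aldh1a7 (52.0 CPM) were the lowest of all libraries. It was among the 4 libraries with acinar transcripts (1209 CPM), and Cyp26a1 in the other 3, at 3.48, 1.46 and 8.29 CPM, lay within the range of the remaining livers.

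Genotype was not followed by a call in any of the 9 genes. For the mean genotype effect 0 were called (background 0.0886%; 2 with an unadjusted p under 0.05; DESeq2 0 under both settings). KO against WT gave 0 calls in males CD (background 0.0148%; 0 unadjusted), males WD (0.288%; 2 unadjusted), females CD (0.0886%; 1 unadjusted) and females WD (0%; 0 unadjusted), and DESeq2 called 0 in each under both settings. The most different gene was Cyp26a1, whose mean genotype effect was -1.29 ± 0.41 (adjusted p = 0.329) and -0.70 without WT females CD 4 (adjusted p = 0.4175). In males on the WD all 4 KO livers (2.01 to 7.26 CPM) lay below all 4 WT livers (8.59 to 33.0 CPM), a log2 fold change of -2.06 ± 0.82 with an adjusted p of 0.35. In females on the CD the fold change was -2.47 ± 0.83 (adjusted p = 0.234) with all libraries and -0.07 without WT females CD 4. In females on the WD the KO and WT livers overlapped, at 6.31 to 10.8 and 3.86 to 10.0 CPM. Adh1 was the other gene with an unadjusted p under 0.05 for the mean effect (-0.15 ± 0.07, adjusted p = 0.529), and in males on the WD its KO livers lay below the WT livers without overlap (-0.30 ± 0.14, adjusted p = 0.421). Lrat in males on the CD did not overlap either, with KO below WT (-0.56 ± 0.33, adjusted p = 0.631). In females the KO and WT livers overlapped for each of the 9 genes on both diets. How many of all tested genes separate groups in this way was not counted, here or for sex and diet. The 95% interval of the mean genotype effect ran from -0.15 to 0.10 for Rbp4, from -0.14 to 0.12 for Rdh7 and from -0.18 to 0.09 for Dhrs3, and was wider for Lrat (-0.38 to 0.25).

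No difference of the genotype effect between the sexes or the diets passed the test. Between the sexes 0 of the 9 genes were called (background 0%; 1 unadjusted, Dhrs3, 0.31 ± 0.14, adjusted p = 0.406), and between the diets 0 (background 0%; 0 unadjusted), and DESeq2 called 0 for both.

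Other genes of the pathway, grouped by role, were examined from lists chosen with earlier results of these data known. Among the carriers, 4 of 10 listed genes were tested, 2 were higher in females (15.9% of all tested genes) and 3 lower on the WD (10.8%), with a median log2 fold change on the WD of -0.40 against -0.01 for all tested genes. Ttr, which encodes the transthyretin that travels with retinol-binding protein, was 0.45 ± 0.09 lower on the WD (adjusted p = 0.00061), and Stra6l, a membrane receptor for retinol-binding protein, was 0.35 ± 0.06 lower (adjusted p = 0.000171). These are the partners of Rbp4, whose mean diet effect was also below 0 but was called within no single group. Within single groups Ttr was called in KO males alone (-0.89), where Rbp4 changed by -0.11 (adjusted p = 0.711). Fabp5, a fatty acid-binding protein that also carries retinoic acid, was 1.73 ± 0.40 higher in females (adjusted p = 0.00173) and 1.96 ± 0.40 lower on the WD (adjusted p = 0.00133). Within single groups its sex effect was called on the WD alone (2.86 in WT, 3.20 in KO). Its diet effect was called in males alone (-2.87 in WT, -3.66 in KO). Each of these calls was lost without certain single libraries.

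The other oxidoreductases of retinol and retinal included genes higher and genes lower in females. Of 14 tested genes, 6 were higher and 3 lower in females (15.9% and 15.6% of all tested genes), and 2 were higher and 4 lower on the WD (8.63% and 10.8% of all tested genes). Their median log2 fold change was 0.18 for sex (0.02 for all tested genes) and -0.02 for diet. Rdh16f2, a neighbor and paralog of Rdh16, was 1.90 ± 0.11 higher in females (adjusted p = 7.84e-14) and 0.63 ± 0.11 lower on the WD (adjusted p = 0.000211). Within single groups its diet effect was called in males alone (-0.71 in WT, -1.35 in KO), and the WT call was lost without certain single libraries. Its levels were 14.2 to 105 CPM in males and 171 to 293 CPM in females, without overlap between the sexes. Adh4, the class II alcohol dehydrogenase, went the other way from Adh1, at 1.29 ± 0.14 lower in females (adjusted p = 3.53e-08), and Adh5 was 0.30 ± 0.05 lower (adjusted p = 2.69e-05). Rdh11 was 1.73 ± 0.25 lower on the WD (adjusted p = 4.58e-05) and 0.75 ± 0.25 higher in females (adjusted p = 0.0243), the latter lost without WT females WD 1 (0.0507). Within single groups the Rdh11 diet effect was called in males alone (-2.37 in WT, -2.46 in KO). Of the retinal dehydrogenase list, 2 of 3 genes were tested and 0 passed for the mean effect of sex, diet or genotype, and the same held for Cyp26b1, the 1 of 2 other clearance genes tested.

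Of the 8 genes of retinyl ester and carotenoid turnover, 3 were higher in females (15.9% of all tested genes), and on the WD 2 were higher and 1 lower (8.63% and 10.8%), with medians of 0.06 for sex and -0.03 for diet. Pnpla3, a lipase that also acts on retinyl esters, was 2.55 ± 0.52 higher in females (adjusted p = 0.000512) and 2.10 ± 0.52 lower on the WD (adjusted p = 0.00595). Within single groups its sex effect was called on the WD alone (4.27 in WT, 4.25 in KO). Its diet effect was called in WT males alone (-3.75), and each of these calls was lost without certain single libraries. Lpl was 0.80 ± 0.16 higher on the WD (adjusted p = 0.000787), and within single groups this was called in WT males alone (1.40). Lipe was the gene of these lists whose diet effect differed between the sexes (-0.74 ± 0.15, adjusted p = 0.0185). That difference was not called for Fabp5, Rdh16f2, Rdh11 or Pnpla3. The 5 adipocyte markers had mean sums on the CD and WD of 2.08 and 19.75 CPM in WT males and 0.184 and 52.8 CPM in KO males. In females these were 5.73 and 0.493 CPM in WT and 5.84 and 4.86 CPM in KO. The part of this list in the differences of Lpl and Lipe was not tested. Bco1, the oxygenase that cleaves beta-carotene to retinal, was the 1 retinoid gene called for genotype, at 0.62 ± 0.06 higher in KO (adjusted p = 5.58e-07). The difference was called in males on the CD (0.93 ± 0.13, adjusted p = 0.000491) and on the WD (0.74 ± 0.13, adjusted p = 0.00804), and it was 0.40 ± 0.12 in females CD (adjusted p = 0.1905) and 0.39 ± 0.12 in females WD (adjusted p = 0.837). In males on the WD the Bco1 call was lost without KO males WD 1 (0.0625), and in the fit of 2 groups alone the calls on the CD (0.0578) and the WD (0.317) were both lost. Bco1 lies 2.94 Mb from Nudt7 on chromosome 8 (117095854-117133720 and 114133557-114154739), and the allele came from FVB zygotes, so the deletion and any flanking FVB sequence cannot be told apart. Among the 6 receptor genes 3 were called for sex (31.6% of all tested genes). Rarb (0.41 ± 0.13, adjusted p = 0.021) and Rxrg (0.66 ± 0.08, adjusted p = 3.86e-07) were higher and Rxra (-0.17 ± 0.06, adjusted p = 0.0233) was lower in females, and none was called for the mean diet effect. The call of Rarb was lost without the 4 acinar libraries (0.0581) and that of Rxra with no filter (0.0548). Rara was lower in females in KO mice on the WD (-0.43 ± 0.14, adjusted p = 0.0361), a call that was lost with edgeR length offsets (0.181) and without KO males WD 2 or 3 or any of the 4 KO females WD (0.0524 to 0.184).

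**Figure D3:**
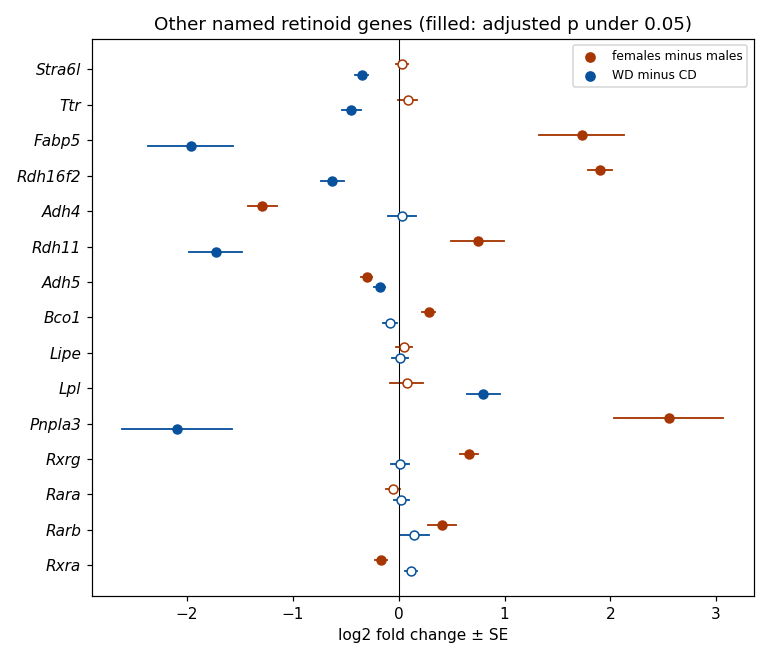
Log2 fold changes ± SE (x axis) for sex (females minus males) and diet (WD minus CD) of other named retinoid genes (y axis), with filled points at an edgeR adjusted p under 0.05. In these mean effects Fabp5, Rdh16f2, Rdh11 and Pnpla3 are higher in females and lower on the WD, whereas Adh4 is the farthest below 0 for sex. Within single groups the diet effects of Fabp5, Rdh16f2, Rdh11 and Pnpla3 were called in males alone.

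Because Lrat is enriched in stellate cells, the stellate marker list was read beside it. Of its 12 genes, 4 were called for sex, all higher in females (Des, Dcn, Colec11 and Ecm1). Of all tested genes 31.6% were called for sex and 15.9% were higher in females. For the mean diet effect 0 of the 12 were called. The summed level was 404 to 657 CPM in males and 454 to 702 CPM in females. Its group means were 432.5 to 504.1 CPM in males and 498.4 to 601.8 CPM in females, and its part in the levels of Lrat was not tested.

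The genes were also compared for how they varied together among the livers. Deviations of log2 CPM from the group means were correlated for all 36 pairs of the 9 genes over 32 libraries, with p-values from 100000 permutations within groups adjusted over the 36 pairs, an examination added after the data were seen. The relation between Lrat and Cyp26a1 had a Pearson r of 0.688 (permutation p = 0.00278, adjusted p = 0.0312) and a Spearman rho of 0.66 (permutation p = 0.00036, adjusted p = 0.013), and r was 0.527 without the 2 libraries farthest from the median and 0.493 without WT females CD 4. Besides this pair, 3 others passed by both measures. Aldh1a7 with Rdh16 gave r = 0.697 (permutation p = 0.00072, adjusted p = 0.0259) and rho = 0.631 (permutation p = 0.00308, adjusted p = 0.0277), with r = 0.645 without 2 libraries. Adh1 with Rdh16 gave r = 0.641 (permutation p = 0.00347, adjusted p = 0.0312) and rho = 0.648 (permutation p = 0.00136, adjusted p = 0.0245), with r = 0.664 without 2 libraries. Adh1 with Dhrs3 gave r = 0.556 (permutation p = 0.00161, adjusted p = 0.029) and rho = 0.585 (permutation p = 0.0022, adjusted p = 0.0264), with r = 0.525 without 2 libraries. In each of these 4 pairs, livers that were high in one gene for their group tended to be high in the other.

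**Figure D4:**
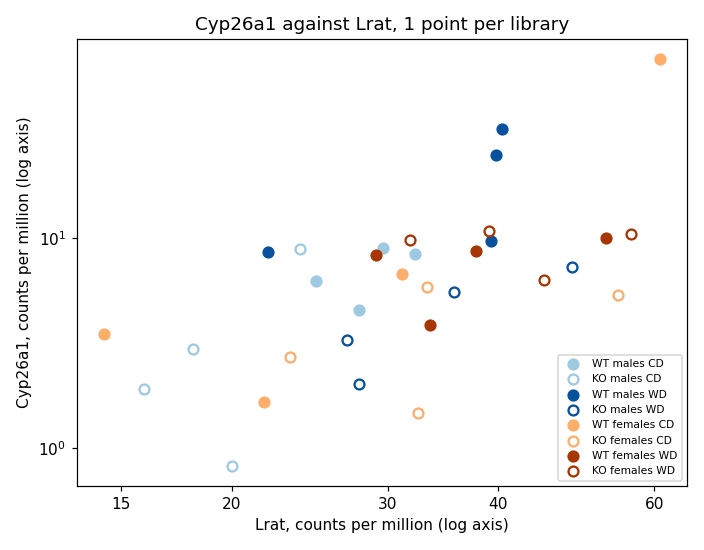
Cyp26a1 (y axis) against Lrat (x axis), both in CPM on log axes, with 1 point per library and groups by color (filled, WT; open, KO). The WT females CD library with 60.9 CPM of Lrat and 70.7 CPM of Cyp26a1 lies at the top right. KO males CD lie toward the lower left except replicate 2, at 23.9 CPM of Lrat and 8.88 CPM of Cyp26a1. Libraries of other groups lie there too, such as WT females CD 2 (14.4 CPM of Lrat and 3.48 CPM of Cyp26a1).

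Ranked over all 12214 tested genes with a mean log2 CPM above 0, by the Pearson correlation of log2 CPM over the 32 libraries, the genes most like Cyp26a1 were Cyp26b1 (0.632), Lrat (0.631) and Zfp970 (0.608). Cyp26b1 encodes the other main retinoic acid hydroxylase. Those most like Lrat were Acer2 (0.746), Itga9 (0.725) and Rarb (0.713), the last of which encodes a retinoic acid receptor. Without WT females CD 4, Cyp26a1 was most like Ces2a (0.693), Fancl (0.607) and Klhl5 (0.605). Lrat then ranked 4 (0.569) and Cyp26b1 ranked 9 (0.554) for Cyp26a1. For Lrat, Rarb then ranked 13 (0.684) and Cyp26a1 ranked 125 (0.569). The values of Dhrs3 over the 32 libraries were 0.000728 with Cyp26a1 and -0.0066 with Lrat.

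The other genes followed different neighbors. For Aldh1a1 these were Mgst1 (0.844), Lactb (0.83) and Abcg2 (0.828), and for Aldh1a7 Clstn3 (0.873), Col5a3 (0.837) and Ces2c (0.831). Adh1 was most like Hamp2 (0.9), Hacl1 (0.898) and Serpinc1 (0.885), and Dhrs3 was most like Sdf4 (0.852), Serpinc1 (0.851) and Anp32a (0.85). Serpinc1 was thus common to the lists of Adh1 and Dhrs3. Rdh16 was most like Dhrs7 (0.886), Slc16a11 (0.879) and Copz2 (0.854), Rdh7 like Klkb1 (0.884), Ggact (0.819) and 1300017J02Rik (0.795), and Rbp4 was correlated with Chrnb2 (0.862) and Tufm (0.834). These values include the differences between groups.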

How the data were processed

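Liver mRNA libraries (KAPA mRNA HyperPrep, 50-base paired reads) were quantified by the authors with Salmon 1.3.0 against GRCm38 transcripts, with DESeq2 1.28.1 named in the submitters' processing notes. The deposited values are estimated counts and TPM per transcript, with lengths. Here the estimated counts of 115973 of 117135 transcripts (GENCODE vM21; 0.315% to 0.424% of counts lay outside it) were summed to 35523 genes and rounded. The 13539 genes that reached 10 counts in 4 or more libraries were fitted with edgeR 4.0.16 (R 4.3.3; TMM, robust quasi-likelihood F-test) in 1 model of the 8 groups, with 18 contrasts and Benjamini-Hochberg adjustment over all tested genes at 0.05. SE is the log2 fold change divided by the square root of F. CPM are on TMM library sizes, and the prior count for log2 values was 2. Alternatives used DESeq2 1.42.0, RLE size factors, length offsets, other filters, a replicate block, fits of 2 groups, removal of a length trend (lowess span 0.3) and omission of libraries. Named genes were the 9 members, up to 4 called genes with the smallest p in each other retinoid list, and the 3 most correlated genes per member; genes that the rule takes but that are absent from the text are not reported here. The members and lists were chosen with earlier results of these data known, and the study of pairs of members and the omission of the acinar libraries followed inspection of the data.

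No libraries of a group agreed within sampling noise (chi-square per gene 10.5 to 108 over 48 pairs; Spearman 0.96 to 0.992). Libraries with the same replicate number did not deviate together (mean correlation 0.00653, lowest -0.447; -0.00185 for other numbers), so no pairing was used. Sequences are from RefSeq (GRCm38.p6) and were handled with Biopython.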

Additional observations from a re-analysis of the deposited data

Results flagged for a closer look

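Among 72 sets of 4 libraries (9 genes in 8 groups), 5 held a library that stood apart from the other 3 by Dixon's criterion at the 95% level, where chance flags about 1 in 20. Cyp26a1 was 70.7 CPM in WT females CD 4 and 1.66 to 6.70 CPM in the other 3. Lrat was 22.0 CPM in WT males WD 4 and 39.3 to 40.4 CPM in the others. Aldh1a1 was 952.5 CPM in WT males WD 3 and 1202 to 1215 CPM in the others. KO females CD 1 was flagged for 2 genes, with 2574 CPM of Rbp4 (1756 to 1862 in the others) and 268 CPM of Dhrs3 (174 to 184 in the others). No difference between groups in an effect passed the test for any of the 9 genes.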

How the results depend on the processing

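Counts of called members changed by over 1.5 times in the following settings. For females against males in WT CD the count went from 0 to 1 with DESeq2 on the sums, DESeq2 with length offsets and the length trend removed, in WT WD from 3 to 5 with DESeq2 on the sums, without the 4 acinar libraries and with the length trend removed, and in KO WD from 2 to 4 with DESeq2 under both settings and without the acinar libraries. In KO CD it went from 1 to 2 with DESeq2 on the sums and without the acinar libraries, and to 0 with edgeR length offsets, no filter and the fit of 2 groups. For WD against CD in WT males it went from 0 to 1 with DESeq2 on the sums, the replicate block, the fit of 2 groups and without the acinar libraries, and in KO males from 1 to 2 in the last 2 of these. Leaving out 1 library at a time gave 3 to 5 for diet, 0 to 1, 1 to 3 and 0 to 2 for sex in WT CD, WT WD and KO CD, and 0 to 1 for diet in WT males. The cause of these shifts was not tested. All shares of tested genes in the text come from the main edgeR fit. Counts under other settings, DESeq2 included, have no such share beside them. Whether the calls of all genes shifted likewise was not tested. With the replicate number as a block no other count changed by over 1.5 times, and Adh1 in WT males reached -0.41 (adjusted p = 0.0493). No direction of a called gene reversed. Rdh16 in WT WD (adjusted p = 0.0514) and Dhrs3 in KO CD (0.133) were lost in the fit of 2 groups. The log2 ratio of Rbp4 between the sexes was -0.01 in TPM. Omitting libraries whose acinar list exceeded 10 times the median was not run, since it takes 10 libraries and all WT females CD; a limit of 200 CPM replaced it. Depth limits Cyp26a1 most, at 10 counts in its lowest library.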
